A study of Mus musculus with 31 samples.

Results

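Liver RNA-seq of 31 *hFIX-R29X* mice was examined for 8 genes, the uptake receptors of a GalNAc-conjugated antisense oligonucleotide (ASO) and the RNase H family, out of 31172 gene symbols in the files. They were chosen by name, as 4 uptake receptors (*Asgr1*, *Asgr2*, *Stab1* and *Stab2*) and 4 RNase H genes (*Rnaseh1*, *Rnaseh2a*, *Rnaseh2b* and *Rnaseh2c*), and all 8 had a value in every mouse. No other mouse gene of these 3 name families is annotated in GENCODE M21. All mice, controls included, lack the mouse gene *F9* and express in its place a minigene of human FIX bearing the nonsense codon R29X, under a human transthyretin promoter that is active in hepatocytes. They were 8 to 14 weeks old, were injected subcutaneously 6 times, once every 5 days, and were killed 48 h after the final injection. DPBS was injected in 11 mice, of which 6 were female and 5 male. Control-GalNAc-ASO was injected in 4 mice at 15 mg/kg (Control 15, 2 of each sex) and in 6 mice at 20 mg/kg (Control 20, 3 of each sex). *Upf3b*-GalNAc-ASO was injected in 5 mice at 10 mg/kg (Upf3b 10) and in 5 mice at 20 mg/kg (Upf3b 20), each with 2 females and 3 males. Each library came from a separate mouse.

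An ASO that carries a triantennary GalNAc sugar is bound on the hepatocyte surface by the asialoglycoprotein receptor, an endocytic lectin built from a major subunit, the product of *Asgr1*, and a minor subunit, the product of *Asgr2*. Stabilin-1 and stabilin-2, the products of *Stab1* and *Stab2*, are scavenger receptors of liver sinusoidal endothelial cells that take up phosphorothioate ASOs whether or not these carry the sugar, and *Stab1* is also expressed by macrophages. Once bound to its target, a gapmer ASO forms an RNA-DNA hybrid whose RNA strand is cut by RNase H1, a single-chain enzyme encoded by *Rnaseh1*. RNase H2 is a separate enzyme that removes ribonucleotides from DNA, with a catalytic subunit (*Rnaseh2a*) and a pair of accessory subunits (*Rnaseh2b* and *Rnaseh2c*).

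The ASOs are given because their uptake and action are what links the genes described here. Each has 16 nucleotides, read 5′ to 3′, with wings of 3 modified nucleotides in lower case on either side of a gap of 10 DNA nucleotides in capitals, the part that makes the hybrid a substrate of RNase H1. The control sequence is the one listed for the control ASO, and whether the conjugated control has the same bases is not stated in the sources used here.
*Upf3b* ASO: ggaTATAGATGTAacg
Control ASO: ggcCAATACGCCGtca
Site in the *Upf3b* transcript, with the bases opposite the gap in capitals: cgtTACATCTATAtcc

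The *Upf3b* site lies at chrX:37091973-37091988 on the minus strand of GRCm38, in exon 10 of 10, after the stop codon. Its sequence occurred in 1 of 141767 annotated transcripts, and the complement of the control ASO in 0. *Upf3b* has 3 annotated transcripts, 2 of them protein-coding, so not all of them hold the site. Only spliced sequences were searched, for the sites and for the runs that follow, so introns were left out. The longest run in a member's transcripts complementary to the *Upf3b* ASO was between 5 bases (*Rnaseh2a*) and 8 bases (*Rnaseh2b*), and 15.7% of 55341 annotated genes held a run of at least 8. For the control ASO the runs were between 6 and 8 bases, with 8 in *Asgr1* and *Stab2*, and 5.35% of genes held a run of at least 8.

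*Upf3b* mRNA, the target, was measured as a check of the labels. Its level in DPBS-treated mice was 97.3 ± 33.2 TPM (SD, n = 11), followed by 57.8 ± 22.1 TPM (n = 4) in Control 15, 111 ± 21.8 TPM (n = 6) in Control 20, 21.5 ± 20.0 TPM (n = 5) in Upf3b 10 and 7.80 ± 5.82 TPM (n = 5) in Upf3b 20. At 20 mg/kg it was 14.6-fold lower than in Control 20 (limma, adjusted p = 1.59e-05). The Upf3b 10 mice spread from 3.95 to 53.7 TPM, and their difference from Control 15 (log2 fold change -1.73, SE 0.61) did not pass the test (limma, adjusted p = 0.211), while that from DPBS did (adjusted p = 0.00455). Depth was inferred by taking the most frequent positive value of each mouse as 1 read, and was between 1020676 and 7391615 reads per mouse. This inferred count of assigned reads lies well below the average sequencing depth that the paper states. All 4 mice under 2000000 reads were female, with 2 in DPBS and 1 each in Control 20 and Upf3b 10. The last of these, replicate 3, had the lowest depth, the highest *Upf3b* of its group and a median correlation of 0.677 with its group, against a median of 0.844 over all mice. Without the 4 mice the number of genes called in Upf3b 10 against Control 15 went from 27 to 91 and that in Upf3b 20 against Control 20 from 236 to 143.

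The highest of the 8 transcripts lay 1476-fold above the lowest in mean level. Over the 31 mice the mean TPM was 2024 for *Asgr1*, 339 for *Asgr2*, 31.3 for *Rnaseh2b*, 26.4 for *Rnaseh2c*, 21.4 for *Stab1*, 20.6 for *Stab2*, 4.65 for *Rnaseh2a* and 1.37 for *Rnaseh1*. *Asgr1* exceeded 99.5% and *Asgr2* 96.7% of genes with a median above 0, while *Rnaseh1* exceeded 2.13%. *Asgr1* was above *Asgr2*, and *Asgr2* above *Rnaseh2b*, in 31 of 31 mice. Below these the order was less firm. *Rnaseh2b* was above *Rnaseh2c* in 18 mice, *Rnaseh2c* above *Stab1* in 21 and *Stab1* above *Stab2* in 18, so those neighbours did not differ beyond the spread between mice. *Stab2* was above *Rnaseh2a* in 29 mice and *Rnaseh2a* above *Rnaseh1* in 28.

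The deposited TPM moved in steps of 1 read for long and short transcripts alike. In each mouse, between 52.0% and 64.5% of values for genes with transcripts under 1000 bases, and between 67.8% and 80.7% for those over 4000 bases, were whole multiples of the same step within 0.02 of a read. The values thus behaved as reads scaled to depth, without a division by length. Divided by the length of the annotated transcript with the longest coding sequence, the mean level per kilobase was 1547 for *Asgr1*, 247 for *Asgr2*, 34.2 for *Rnaseh2c*, 20.96 for *Rnaseh2b*, 2.68 for *Stab1*, 2.51 for *Stab2*, 1.56 for *Rnaseh2a* and 0.942 for *Rnaseh1*. Per kilobase, *Rnaseh2c* lay above *Rnaseh2b* in 27 of 31 mice and *Rnaseh2b* above *Stab1* in 31. On that scale both accessory subunits of RNase H2 lay between the asialoglycoprotein receptor and the stabilins. This order depends on the division, as the *Stab1* and *Stab2* transcripts have 7999 and 8228 bases and that of *Rnaseh2c* 771. For reads of 3′ ends only, as from the kit that the labels name, the division would understate long transcripts. Which kind of library applies was not tested.

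*Asgr1* and *Asgr2* lie next to each other on chromosome 11 of GRCm38, both on the plus strand. *Asgr1* runs from 70054085 to 70057894 with 8 exons and *Asgr2* from 70092644 to 70106187 with 9, and no gene is annotated in the 34749 bases between them. *Asgr1* ranged from 1013 to 5217 TPM, with a median of 2099.7, in DPBS-treated mice. It was 2519.8, 2035, 3321 and 1882 TPM in the Control 15 mice, and between 889.7 and 2097 TPM with a median of 1286 in the 6 Control 20 mice. The Upf3b 10 mice had 1372, 2467, 1521, 880.9 and 2612 TPM, and the Upf3b 20 mice 1114, 2112, 1900.4, 3523 and 1559 TPM. The Control 20 group had the lowest mean, 1399.7 ± 478 TPM, against 2321 ± 1143 TPM in DPBS-treated mice, but the ranges overlapped, as did those of every other pair of groups compared for this gene.

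*Asgr2* varied less than *Asgr1*. It was 316 ± 88.8 TPM in DPBS (n = 11), 389 ± 32.8 TPM in Control 15 (n = 4), 317 ± 47.7 TPM in Control 20 (n = 6), 330 ± 39.0 TPM in Upf3b 10 (n = 5) and 388 ± 128 TPM in Upf3b 20 (n = 5). The Upf3b 20 mice spanned 212 to 543 TPM and so contained both the lowest and the highest value of the 31 mice. The coefficient of variation over all mice was 23.8% for *Asgr2* and 45.4% for *Asgr1*, although both rested on at least 307 reads in every mouse. The ratio of *Asgr1* to *Asgr2* went from 2.31 to 15.9, with a median of 5.23.

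*Stab1* (chromosome 14, 31139013 to 31168641, minus strand) and *Stab2* (chromosome 10, 86841198 to 87008025, minus strand) each have 69 exons, and their means over all mice were 21.4 and 20.6 TPM. *Stab1* was 21.5 ± 6.39 TPM in DPBS (n = 11), 24.2 ± 17.6 in Control 15 (n = 4), 18.3 ± 6.60 in Control 20 (n = 6), 23.2 ± 7.75 in Upf3b 10 (n = 5) and 20.8 ± 7.53 in Upf3b 20 (n = 5). The wide spread of Control 15 came from values of 21.7, 10.3, 15.1 and 49.6 TPM, the last being the highest of the 31 mice. *Stab2* was 22.4 ± 11.99 TPM in DPBS, 24.6 ± 6.69 in Control 15, 21.3 ± 11.3 in Control 20, 15.1 ± 11.6 in Upf3b 10 and 18.4 ± 11.7 in Upf3b 20. The Upf3b 10 mice had 15.6, 10.7, 3.92, 34.5 and 10.8 TPM of *Stab2*, so that 4 mice lay below every Control 15 mouse (18.4, 31.2, 19.4 and 29.5 TPM) and 1 lay above them all. The value of 3.92 TPM rested on 4 reads in the mouse with the lowest depth. *Stab2* overlaps 5 annotated genes or pseudogenes on the other strand, of which *Gm16268* shares 141 exonic bases with it and the others 0, and *Stab1* shares 112 with *Nt5dc2*. The authors had Salmon detect the library type, strand included, and the type it found is not given in the sources used here.

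Other markers of sinusoidal endothelial cells were detected. All 12 such markers apart from *Stab1* and *Stab2* had a median of at least 5 TPM, and their summed level was between 912 and 2758 TPM. It was between 1861 and 2758 TPM in Upf3b 20 and between 945 and 2073 TPM in Control 20, and the markers called were *Pecam1*, an adhesion molecule of endothelium (1745 ± 208 against 809.6 ± 401 TPM, limma adjusted p = 0.0201), and *Egfl7*, a secreted endothelial factor (283 ± 44.2 against 105 ± 33.6 TPM, adjusted p = 0.00391). These were 2 of 12 markers, against 2.52% of 9376 genes called. An unadjusted p under 0.05 (limma) was reached by 3 of the 12, against 18.7% of all genes. The other 10 had log2 fold changes below 0, none past the test, and 9 of the 12 markers did so with median-of-ratios scaling. The list's median log2 fold change was -0.54 against -0.12 over all genes tested. The part of these markers in the values of *Stab1* and *Stab2* was not tested. All 10 hepatocyte markers also had a median of at least 5 TPM, with a summed level between 21566 and 70946 TPM, and 10 of 12 Kupffer cell and macrophage markers did, with a sum between 238 and 908 TPM. In whole liver, fewer cells of a type and less RNA per cell cannot be told apart.

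*Rnaseh1* (chromosome 12, 28649602 to 28659589, plus strand, 8 exons), the gene of the enzyme that cuts the target RNA of a gapmer, was at the limit of detection. It was listed at 0 in 14 of 31 mice, and in the others it rested on at most 28 reads. Its mean was 0.647 ± 1.22 TPM in DPBS (6 of 11 mice at 0), 0.652 ± 0.805 in Control 15 (2 of 4 at 0), 2.88 ± 4.12 in Control 20 (2 of 6 at 0), 1.53 ± 2.13 in Upf3b 10 (3 of 5 at 0) and 1.57 ± 1.92 in Upf3b 20 (1 of 5 at 0). The level worth 3 reads was between 0.406 and 2.94 TPM depending on the mouse, which covers counting error only, so a mouse at 0 may have held as much as several of the mice above 0. The highest value, 10.7 TPM, stood for 13 reads in a Control 20 mouse with 1210523 reads in all.

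The subunits of RNase H2 were measured at very different levels. *Rnaseh2c* (chromosome 19, 5601873 to 5607019, plus strand, 3 exons) was 30.7 ± 6.88 TPM in DPBS, 30.4 ± 8.20 in Control 15, 22.3 ± 7.43 in Control 20, 22.7 ± 5.73 in Upf3b 10 and 22.2 ± 11.1 in Upf3b 20. Its annotated exons share 426 bases with those of *Kat5* on the other strand. The catalytic subunit *Rnaseh2a* (chromosome 8, 84956610 to 84969767, minus strand, 10 exons) was 3.59 ± 2.30 TPM in DPBS, 5.10 ± 2.28 in Control 15, 3.85 ± 2.97 in Control 20, 6.63 ± 4.12 in Upf3b 10 and 5.62 ± 4.57 in Upf3b 20, on at most 44 reads per mouse. Its exons share 339 bases with *Gm49661* on the same strand and 177 with *Prdx2* on the other, so its values are uncertain to that extent. Both accessory subunits exceeded *Rnaseh2a* in 31 of 31 mice.

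*Rnaseh2b* (chromosome 14, 62292589 to 62372992, plus strand, 11 exons) had the largest log2 difference between groups of any member tested. DPBS-treated mice had from 15.0 to 56.9 TPM and a median of 30.2. The 6 Control 20 mice had from 16.7 to 74.8 TPM and a median of 51.3. The Control 15 mice had 18.7, 33.6, 28.2 and 37.1 TPM. The Upf3b 10 mice had 10.8, 33.0, 31.96, 8.31 and 27.5 TPM, and the Upf3b 20 mice 9.73, 11.7, 46.8, 15.8 and 14.5 TPM. In Upf3b 20, 4 of 5 mice lay below the lowest Control 20 mouse, and replicate 4 lay within the Control 20 range. Only 1 of its 31 values was a whole number of reads, as were 4 of 31 for *Stab1*, and the reason was not tested. Its annotated exons share 66 bases with those of *Dleu7* on the other strand, so the values of *Rnaseh2b* are uncertain to that extent.

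**Figure D1:**
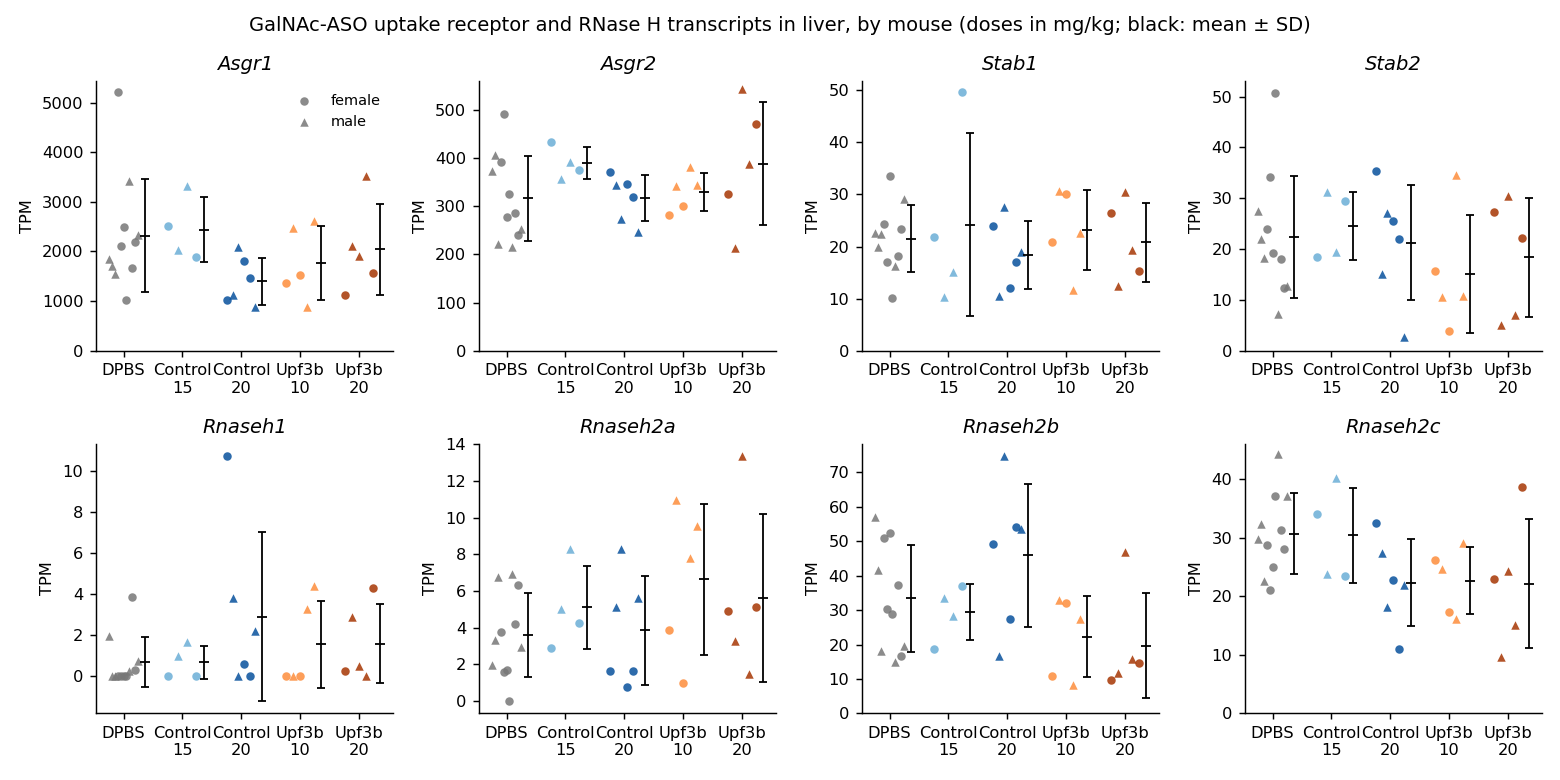
TPM of each member (vertical axes, each on its own scale) in every mouse by group (horizontal axes, doses in mg/kg), with circles for females, triangles for males and black bars for the group mean ± SD. The groups overlapped for every member, *Rnaseh1* sat at or near 0 in most mice, and 4 of 5 Upf3b 20 mice lay low for *Rnaseh2b*.

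The main question was whether knockdown of *Upf3b*, against a GalNAc-ASO without that target, went with another level of these genes. In Upf3b 20 against Control 20, 0 of the 6 members tested passed an adjusted p of 0.05 with limma, against 2.52% of 9376 genes, and 1 of the 6 had an unadjusted p under 0.05, as did 18.7% of all genes, so that the members stood near the background. That member was *Rnaseh2b*, with a log2 fold change of -1.29 (SE 0.44, 95% interval -2.21 to -0.38), 2.45-fold lower in Upf3b 20, and an adjusted p of 0.113. Without replicate 4 of Upf3b 20 its difference was -1.62 with an adjusted p of 0.0410, and without replicate 2 of Control 20 it was -1.65 with an adjusted p of 0.0455. Without the Control 20 mouse under 2000000 reads it was -1.22 with an adjusted p of 0.192. Across the 31 mice *Rnaseh2b* also went with depth, with a correlation of -0.50 between log2 level and log2 reads, whose part in the difference was not tested.

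The receptors were closer to 0 in the same comparison. The log2 fold change was 0.48 (SE 0.29) for *Asgr1*, 0.26 (SE 0.26) for *Asgr2*, 0.17 (SE 0.40) for *Stab1* and -0.08 (SE 0.52) for *Stab2*, and -0.04 (SE 0.40) for *Rnaseh2c*. The intervals reached from -0.13 to 1.08 for *Asgr1* and from -1.17 to 1.01 for *Stab2*, so a 2-fold difference of *Stab2* in either direction lay within what 5 and 6 mice allow. The median over the 6 members was 0.07 and that of all genes -0.12.

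In Upf3b 10 against Control 15, groups whose doses differ, 0 of 7 members tested were called (limma) against 0.295% of 9166 genes, and 0 of the 7 had an unadjusted p under 0.05, against 15.8% of all genes. For no member did every Upf3b 10 mouse lie below every Control 15 mouse, as they did for 2.73% of the genes tested. The lowest value was that of *Stab2*, -0.97 (SE 0.52, adjusted p = 0.375), which became -0.58 without the Upf3b 10 mouse with the fewest reads. *Asgr1* was -0.57 (SE 0.34), *Rnaseh2b* -0.55 (SE 0.48), *Rnaseh2c* -0.42 (SE 0.38), *Asgr2* -0.25 (SE 0.26), *Rnaseh2a* 0.01 (SE 0.57) and *Stab1* 0.18 (SE 0.45). *Rnaseh2a* met the minimum of 5 TPM through Upf3b 10 only (median 7.81 TPM). The same holds for its limma tests against DPBS and for the difference of the effects. Its level in that group was part of why it was tested. All 10 hepatocyte markers tested were also below 0 here, as deposited and with median-of-ratios scaling, with 1 of them called and a median of -0.51 against -0.03 over all genes. Summed, they had a median of 32599 TPM in Upf3b 10 (21566 to 62805) and of 52087 TPM in Control 15 (47019 to 59310). The part of this in the value of *Asgr1*, a hepatocyte gene, was not tested. The difference between the *Upf3b* effects at the higher and the lower dose was called for 0 of 7 members and for 0% of 9840 genes with limma, of which 747 had an unadjusted p under 0.05. *Asgr1* was the only member among these 747, with 1.04 (SE 0.48, adjusted p = 0.623), being 0.48 in the one comparison and -0.57 in the other.

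The control ASO itself was compared with DPBS to ask whether exposure to a GalNAc-ASO went with these genes. With limma, 0 of 6 members and 0% of 8971 genes were called in Control 15 against DPBS, where 644 genes had an unadjusted p under 0.05, none of them a member. In Control 20 against DPBS, 0 of 6 members and 0% of 9140 genes were called, where 905 genes had an unadjusted p under 0.05. *Asgr1* was among the 905, at -0.66 (SE 0.26, 95% interval -1.21 to -0.12, adjusted p = 0.468) against a median of all genes of 0.15. It stayed between -0.81 and -0.54 whichever mouse was left out. *Rnaseh2c* was -0.49 (SE 0.26) in the same comparison.

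In Upf3b 10 against DPBS, 0 of 7 members were called against 0.376% of 9032 genes, and in Upf3b 20 against DPBS, 0 of 6 against 1.13% of 9078 (limma). An unadjusted p under 0.05 was reached by 0 members in either, and by 8.27% and 11.9% of all genes. *Rnaseh2b* was -0.58 (SE 0.41, adjusted p = 0.714) in Upf3b 10 and -0.82 (SE 0.40, adjusted p = 0.420) in Upf3b 20, where it went from -1.17 to -0.59 with 1 mouse left out. *Rnaseh2c* was -0.45 (SE 0.29) and -0.54 (SE 0.31). These comparisons share the DPBS mice with those of the control ASO, so that a high or low DPBS group would show in each. *Asgr2*, which was -0.25 and 0.26 against the control ASO, was 0.11 (SE 0.23) and 0.30 (SE 0.25) against DPBS.

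With all 20 ASO-treated mice against the 11 given DPBS, the mean difference over the ASO groups, *Upf3b* and control alike, was estimated most precisely. Of 7 members tested 0 were called (limma), against 0.213% of 9840 genes. Before adjustment, 0 of these 7 members and 7.42% of the 9840 genes lay under 0.05. *Rnaseh2c* was -0.37 (SE 0.21, adjusted p = 0.739), *Asgr1* -0.28 (SE 0.20), *Rnaseh2b* -0.27 (SE 0.28), *Stab2* -0.21 (SE 0.33), *Stab1* -0.04 (SE 0.24), *Asgr2* 0.20 (SE 0.15) and *Rnaseh2a* 0.36 (SE 0.34). *Rnaseh2a* was tested here through its level in Upf3b 10 only, so its value is no independent support for a difference. The 95% interval was -0.68 to 0.13 for *Asgr1* and -0.10 to 0.51 for *Asgr2*. For this mean over the groups it thus left out a 2-fold change of either transcript on the log2(TPM + 1) scale. It did not do so for each group, as the *Asgr1* interval against DPBS reached -1.21 in Control 20 and -1.03 in Upf3b 10. Over all ASO-treated mice the interval was -0.86 to 0.45 for *Stab2* and -0.33 to 1.05 for *Rnaseh2a*.

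Members under a median of 5 TPM in both groups were tested by permutation of the mice. There were 12 such tests, all two-sided, 8 of *Rnaseh1* and 4 of *Rnaseh2a*, and 0 had a p under 0.05. The largest difference in mean log2(TPM + 1) was 0.87 for *Rnaseh1* in Control 20 against DPBS (exact permutation test, p = 0.136), which was 0.32 without the mice under 2000000 reads. For all ASO-treated mice against DPBS, *Rnaseh1* differed by 0.52 (permutation test, p = 0.175). *Rnaseh2a* differed by 0.45 in Upf3b 20 against Control 20 (exact permutation test, p = 0.481) and by 0.55 in Control 15 against DPBS (exact permutation test, p = 0.253). With no filter on low values, *Rnaseh1* had adjusted p-values of at least 0.742 with limma over the comparisons.

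**Figure D2:**
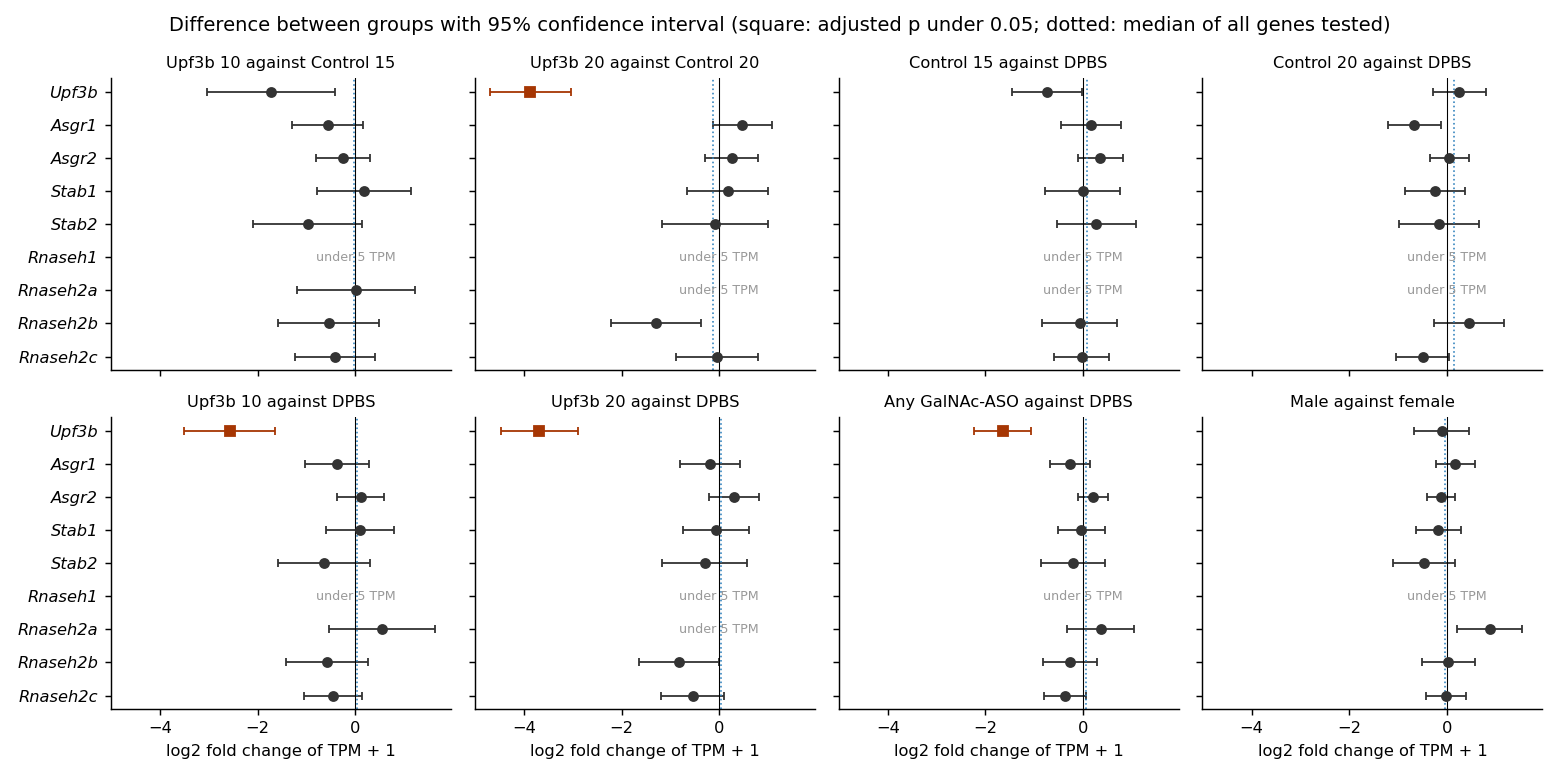
Log2 fold change of TPM + 1 (horizontal axes) of *Upf3b* and the members (vertical axes) in 8 comparisons, with 95% confidence intervals, squares where the adjusted p was under 0.05 and a dotted line at the median of all genes tested. Only *Upf3b* was called, in 4 of the panels, and the interval of *Rnaseh2b* in Upf3b 20 against Control 20 ended at -0.38.

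Both sexes were present in every group, which allowed males and females to be compared within groups. Of 7 members tested 0 were called (limma), against 2.75% of 8915 genes, and 1 had an unadjusted p under 0.05, as did 11.2% of all genes. This was *Rnaseh2a*, 6.29 ± 3.34 TPM in 16 males and 2.91 ± 1.88 TPM in 15 females, a log2 difference of 0.88 (SE 0.33, 95% interval 0.22 to 1.55) with an adjusted p of 0.201. Males ranged from 1.47 to 13.4 TPM with a median of 6.20, and females from 0 to 6.35 TPM with a median of 2.90. *Rnaseh2a* met the minimum of 5 TPM through the males only, so the male level was part of why it was tested. Its p-value and its counts by group are therefore no independent support for a sex difference. With no filter on low values its adjusted p was 0.229 (limma). The male mean was higher in 5 of 5 groups, as for 4.03% of the 8915 genes. In 3 of the groups every male also lay above every female, and 0.976% of the genes had this in at least 3. In Control 20, males had 6.36 ± 1.70 TPM (n = 3) and females 1.34 ± 0.513 TPM (n = 3), and in Upf3b 10 males had 9.43 ± 1.57 TPM (n = 3) and the 2 females 0.980 and 3.90 TPM. In Control 15 the means were 6.64 TPM in males and 3.57 TPM in females. The sexes overlapped in DPBS, at 4.39 ± 2.30 TPM (n = 5) in males and 2.93 ± 2.28 TPM (n = 6) in females, and in Upf3b 20, where males had a mean of 6.03 TPM but a median of 3.26 TPM and the females a mean of 5.01 TPM.

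Depth differed between the sexes as well, with a median of 3079115 reads in females and 3950020 in males. The log2 level of *Rnaseh2a* had a correlation of 0.51 with log2 reads over the 31 mice. Without the 4 females under 2000000 reads the difference was 0.57 with an adjusted p of 0.509, so it was 1.5 times smaller on the log2 scale. The other members differed less. *Stab2* had a median of 16.6 TPM in males and 22.2 TPM in females (-0.47, SE 0.31, adjusted p = 0.661), and *Asgr1* (0.17), *Rnaseh2b* (0.03), *Rnaseh2c* (-0.02), *Asgr2* (-0.12) and *Stab1* (-0.17) were within 0.2 of 0.

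**Figure D3:**
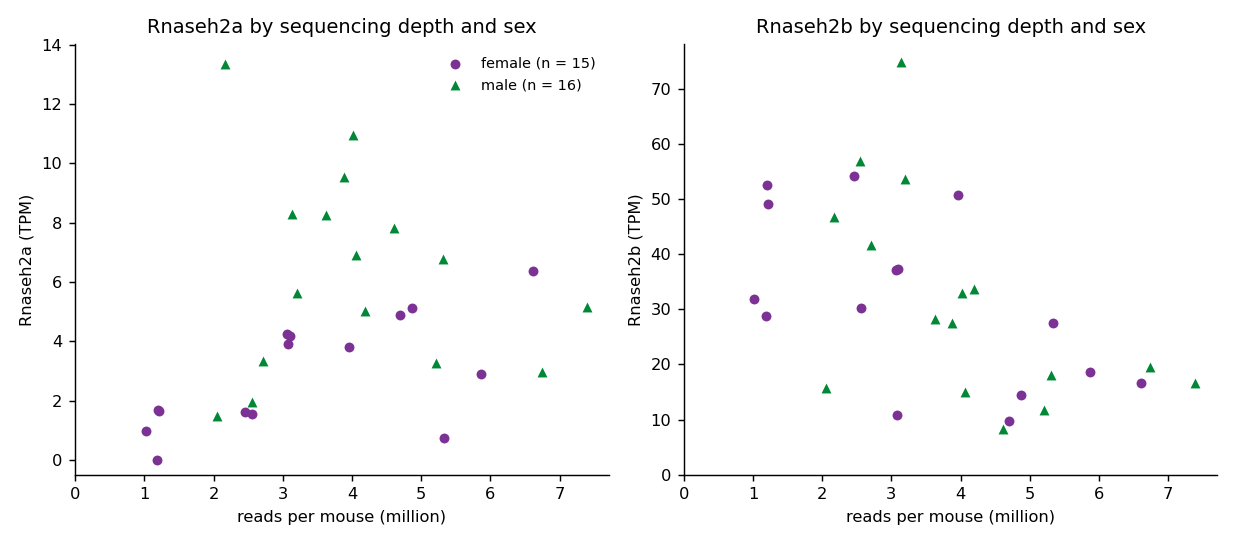
TPM of *Rnaseh2a* and *Rnaseh2b* (vertical axes) against reads per mouse (horizontal axes, units of 1000000) in females (circles, n = 15) and males (triangles, n = 16). The 4 mice under 2000000 reads were female and had at most 1.67 TPM of *Rnaseh2a*, while *Rnaseh2b* was lower in the mice with more reads.

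The levels of genes whose products form 1 receptor or enzyme, or belong to 1 family, were weakly correlated over mice. After the means of groups and sexes were removed, log2 levels of *Asgr1* and *Asgr2* had a correlation of 0.03 over 31 mice, those of *Stab1* and *Stab2* one of -0.14, and those of *Rnaseh2b* and *Rnaseh2c* one of -0.09. The highest among the 15 pairs of members with a median of at least 5 TPM were *Asgr2* with *Stab2* (0.58) and *Stab1* with *Rnaseh2b* (0.50). All points share their libraries and hence depth. The summed hepatocyte markers had a correlation of -0.16 with *Asgr1*, 0.13 with *Asgr2*, -0.56 with *Stab1* and 0.52 with *Stab2*, and the summed endothelial markers -0.09 with *Stab1* and -0.08 with *Stab2*. The endothelial sum rested largely on *Pecam1*, with a mean of 1745 TPM in Upf3b 20, where the median sum was 2377 TPM. Its correlations thus say little of the other endothelial markers. Of the 24 such correlations of the 4 receptors with 6 marker lists, the furthest from 0 was that of *Asgr2* with cholangiocyte markers (-0.61), of which 1 of 5 had a median of at least 5 TPM. Stellate cell markers had -0.44 with *Asgr2*, 0.42 with *Stab1* and -0.42 with *Stab2*, and Kupffer cell markers 0.39 with *Asgr1*.

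**Figure D4:**
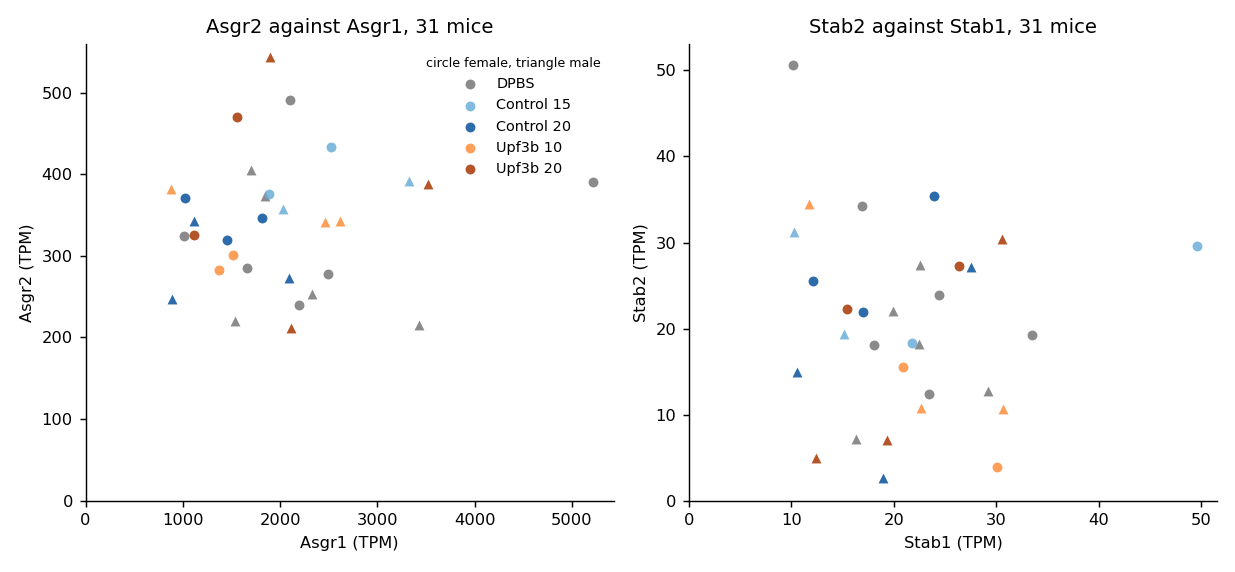
*Asgr2* against *Asgr1* (left) and *Stab2* against *Stab1* (right) in TPM, 1 point per mouse, coloured by group with circles for females and triangles for males. Points of both pairs are widely scattered, and the ratio of *Asgr1* to *Asgr2* went from 2.31 to 15.9.

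For the 6 members with a median of at least 5 TPM, the 3 genes most like each among 8502 were found on the same measure. They were *Iah1* (0.89), *Mgam* (0.86) and *Pigr* (0.82) for *Asgr2*, and *Dcbld2* (0.81), *Nrn1* (0.79) and *Sbds* (0.79) for *Rnaseh2b*. For *Stab2* they were *Twnk* (0.76), *Ilkap* (0.76) and *Mapkapk5* (0.76). The other 3 of the 6 had lower maxima, with *H2-Eb1* (0.66), *Nbn* (0.65) and *Pafah2* (0.63) for *Asgr1*, *Gpr108* (0.69), *Atic* (0.68) and *9030624J02Rik* (0.67) for *Stab1*, and *Blvrb* (0.69), *Plod1* (0.68) and *Sdhb* (0.67) for *Rnaseh2c*.

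Other genes on the route of an ASO through the liver cell were set beside the members. Of 15 further lectins and scavenger receptors tested, 0 were called in either *Upf3b* comparison (limma, 4 at an unadjusted p under 0.05 at 20 mg/kg and 5 at the lower dose, where 18.7% and 15.8% of all genes had one). The largest differences in Upf3b 20 against Control 20 were those of *Mrc1*, the mannose receptor (33.2 ± 28.7 against 57.5 ± 13.7 TPM, log2 fold change -1.19, adjusted p = 0.184), and *Egfr*, the EGF receptor (132 ± 66.6 against 272 ± 105 TPM, -1.15, adjusted p = 0.0744). In Upf3b 10 against Control 15 they were those of *Scarf1*, a scavenger receptor of endothelium (-1.50, adjusted p = 0.281), and *Marco*, a scavenger receptor of macrophages (1.24, adjusted p = 0.316). The list's median in Upf3b 20 against Control 20 was -0.53, with 11 of 15 lower (10 with median-of-ratios scaling), against -0.12 over all genes.

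Of 29 genes of clathrin-mediated endocytosis and endolysosomes tested in Upf3b 20 against Control 20, 1 was called, against 2.52% of all genes, and 4 had an unadjusted p under 0.05. *Lamp2*, a lysosomal membrane protein, was 199.8 ± 52.4 TPM (n = 5) against 395 ± 53.6 TPM (n = 6), 2.03-fold lower (limma, adjusted p = 0.0379). Every Upf3b 20 mouse (at most 236 TPM) lay below every Control 20 mouse (at least 293 TPM), as for 1.82% of the 9376 genes. *Eea1*, an early endosome tether, was -1.06 (adjusted p = 0.0854) and *Ap2a1*, a subunit of the clathrin adaptor AP-2, 1.62 (adjusted p = 0.238) at low levels. *Ap2a1* was at most 4.42 TPM in Control 20, so only its level in Upf3b 20 brought it past the minimum of 5 TPM. In Upf3b 10 against Control 15, 0 of 28 were called (limma, 5 at an unadjusted p under 0.05 against 15.8% of all genes), with *Anxa2*, a membrane-binding annexin, at -1.62 (adjusted p = 0.245) and *Picalm*, a clathrin assembly protein, at -1.10 (adjusted p = 0.206) as the largest.

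Of the nucleases and helicases around RNA-DNA hybrids and cleaved RNA, 0 of 26 were called in Upf3b 20 against Control 20 and 0 of 24 in Upf3b 10 against Control 15 (limma), with 5 and 1 at an unadjusted p under 0.05, against 18.7% and 15.8% of all genes. *Trex1*, a DNA exonuclease, was 8.42 ± 3.83 TPM against 1.09 ± 1.47 TPM at 20 mg/kg (2.34, adjusted p = 0.0768). It was at most 3.20 TPM in Control 20, so it met the minimum of 5 TPM through Upf3b 20 only. Its level in Upf3b 20 was thus part of why it was tested and named. At the lower dose *Exosc8*, of the RNA exosome, was -1.53 (adjusted p = 0.277) and *Fen1*, a flap endonuclease, -1.19 (adjusted p = 0.461). The 3 lists named so far had 0 genes called with limma between all ASO-treated and DPBS-treated mice and 0 between the sexes. In the order named, 0 of 15, 1 of 29 and 2 of 27 had an unadjusted p under 0.05 for ASO treatment, against 7.42% of all genes. Between the sexes these were 6 of 15, 0 of 28 and 3 of 25, against 11.2%. The share was thus higher for the lectins and scavenger receptors, of which 12 of 15 were lower in males, with a median of -0.21 against -0.04 over all genes. This was not particular to that list. Of the markers of sinusoidal endothelium 10 of 12 were lower in males (median -0.42), of Kupffer cells 8 of 10 (-0.28) and of stellate cells 7 of 7 (-0.35). Of hepatocyte markers 8 of 10 were lower (-0.09), and the 1 cholangiocyte marker tested was higher. The part of cell types in these values was not tested.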

How the data were processed

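Reads from libraries of 31 mouse livers were quantified by the authors with Salmon (version 0.7.2 per the labels) by quasi-mapping, with the library type detected by the tool, to the Ensembl cDNA set of GRCm38, and TPM per gene symbol were deposited for each mouse. The paper names a TruSeq protocol and the labels a 3′ end kit. How transcripts were summed is not given in the sources used here. Of 31198 symbols per mouse, 26 turned into dates were left out. The most frequent positive value of a mouse was taken as 1 read and gave the reads per mouse. Only 70.2% to 81.7% of values were whole within 0.02 of a read, so no count test was used.

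Groups came from the labels, and the 8 members and the gene lists were chosen with earlier results of these data known. Differences were tested with limma 3.58.1 in R 4.3.3 (trend and robust on) on log2(TPM + 1), two-sided, with sex as a covariate and the mice of the groups compared. The pooled ASO, sex and dose comparisons used all 31 mice. A gene was tested where its median reached 5 TPM in 1 of the groups (or sexes), with Benjamini-Hochberg adjustment at 0.05. Some genes could thus be tested through the group where they were high alone. Fold changes on this scale understate those of low genes. Members under that minimum were tested by permutation in Python 3.11.15 with scipy 1.17.1 (exact, or 100000 resamples with 10 or more mice per group), with raw p-values. Named genes outside the members were those of the lists with an adjusted p under 0.05, the 2 with the largest absolute log2 fold change per list in each *Upf3b* comparison, and the 3 most like each member with a median of at least 5 TPM. A gene that this rule names is not reported here. Positions came from GENCODE M21 on GRCm38, ASO sequences from the supplementary tables. The test was checked on simulated data. Alternatives were another pseudocount, no filter, median-of-ratios scaling, plain eBayes, no sex term, all mice in 1 fit, replicate blocks and each mouse left out. Samples treated with the *Upf1* ASO were not used here.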

Additional observations from a re-analysis of the deposited data

Results flagged for a closer look

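Of 32 combinations of member and group with 4 to 6 mice, 2 held a mouse far from the others, where chance alone gives about 1 in 20. *Rnaseh1* was 10.7 TPM in replicate 1 of Control 20, and the next mouse had 3.79 TPM. The gap was 0.647 of the group's range, past Dixon's critical value for 6 mice. This mouse had 13 reads of *Rnaseh1*, and its library was among the 4 with under 2000000 reads.

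*Rnaseh2b* was 46.8 TPM in replicate 4 of Upf3b 20, and the next mouse had 15.8 TPM, a gap of 0.835 of the range, past that for 5 mice. The same mouse had the highest *Asgr2* (543 TPM) and the highest *Rnaseh2a* (13.4 TPM) of the 31 mice. Its *Upf3b*, 2.57 TPM, was the lowest of all.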

How the results depend on the processing

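No member was called under any alternative other than leaving out 1 mouse (429 values, smallest adjusted p 0.0973, limma), and leaving out 1 mouse at a time called *Rnaseh2b* in 2 of 1180 values, both given with its result. The 12 permutation results also stayed above 0.05, with a smallest p of 0.0644. *Rnaseh1* rested on at most 28 reads per mouse and *Rnaseh2a* on at most 44. The cause of the changes below was not tested.

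Counts of called genes moved as follows. For Upf3b 10 against Control 15 (27) they were 56 with a pseudocount of 5 TPM, 5 with no filter, 16 with plain eBayes, 10 without sex, 91 without mice under 2000000 reads and 2 to 431 with 1 mouse left out, the extremes without Control 15 replicate 3 and Upf3b 10 replicate 1. For Upf3b 20 against Control 20 (236) they were 67 with no filter, 60 with plain eBayes, 143 without the shallow mouse and 70 to 270 with 1 mouse left out, the lowest without Control 20 replicate 3. Scaling moved the share of higher calls there from 36.9% to 54.0% and the median of all genes from -0.12 to -0.02, and in Control 20 against DPBS that median from 0.15 to 0.05. Control 15 against DPBS (0) had 2 with no filter and 0 to 1 with 1 mouse left out, Control 20 against DPBS (0) 1 with a pseudocount of 5 and 0 to 7 (7 without DPBS replicate 1), and the difference of the effects (0) 0 to 1. Upf3b 10 against DPBS (34) had 61 in the fit of all mice, Upf3b 20 against DPBS (103) 56 to 119 (56 without Upf3b 20 replicate 6), all ASO mice against DPBS (21) 12 with no filter and 15 to 33 (33 without Upf3b 20 replicate 2), and males against females (245) 127 among DPBS mice alone.

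Replicate numbers did not pair the mice (mean correlation of same-numbered mice -0.13 to 0.03 over the comparisons). With the replicate number as a block the counts of called genes were 95 for Upf3b 10 against Control 15, 45 for Upf3b 20 against Control 20, 2 for Control 15, 0 for Control 20, 9 for Upf3b 10 and 42 for Upf3b 20 against DPBS. *Rnaseh2b* in Upf3b 20 against DPBS was -1.60 under the block (adjusted p = 0.170, limma). Under the block signs turned for *Asgr1* in Control 15 (-0.034), for *Asgr2* in Control 20 (-0.15), Upf3b 10 (-0.15) and Upf3b 20 (-0.073) against DPBS, for *Rnaseh2c* in Control 15 (0.030), for *Rnaseh2a* in Upf3b 10 against Control 15 (-0.039) and for *Stab2* in Upf3b 20 against Control 20 (0.20).

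Other turns of sign were of differences within 0.32 of 0, none past a threshold. Scaling gave -0.060 for *Asgr2* in Control 20 against DPBS, -0.017 for *Rnaseh2a* in Upf3b 10 against Control 15, 0.037 for *Rnaseh2c* between the sexes, and 0.057 for *Rnaseh2c* and 0.014 for *Stab2* in Upf3b 20 against Control 20. A pseudocount of 5 TPM gave 0.015 for *Stab1* in Control 15 against DPBS. DPBS mice alone gave sex differences of -0.056 for *Asgr1*, -0.34 for *Rnaseh2b*, 0.20 for *Rnaseh2c* and 0.12 for *Stab1*, and no value for *Rnaseh2a*, which was under the minimum there. Leaving out mice under 2000000 reads, chosen after the depths were seen, gave -0.0046 for *Asgr2* and -0.12 for *Rnaseh2a* in Control 20 against DPBS, -0.091 for *Rnaseh2a* in the difference of the effects, 0.044 for *Rnaseh2c* and 0.12 for *Rnaseh1* in Upf3b 20 against Control 20, -0.063 for *Stab1* in Upf3b 10 against DPBS and -0.00083 for *Rnaseh1* in Control 15 against DPBS.

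With 1 mouse left out, the ranges that crossed 0 against DPBS were, in Control 15, -0.0025 to 0.30 for *Asgr1*, -0.19 to 0.19 for *Rnaseh2b*, -0.15 to 0.11 for *Rnaseh2c*, -0.42 to 0.28 for *Stab1* and -0.16 to 0.31 for *Rnaseh1*. In Control 20 they were -0.0021 to 0.11 for *Asgr2*, -0.38 to 0.24 for *Stab2* and -0.20 to 0.28 for *Rnaseh2a*, in Upf3b 10 -0.047 to 0.30 for *Stab1*, in Upf3b 20 -0.39 to 0.0034 for *Asgr1* and -0.21 to 0.089 for *Stab1*, and over all ASO mice -0.15 to 0.025 for *Stab1*. In Upf3b 10 against Control 15 they were -0.24 to 0.35 for *Rnaseh2a*, -0.048 to 0.49 for *Stab1* and -0.071 to 0.58 for *Rnaseh1*. In Upf3b 20 against Control 20 they were -0.28 to 0.17 for *Rnaseh2c*, -0.51 to 0.23 for *Stab2* and -0.66 to 0.12 for *Rnaseh1*. Between the sexes they were -0.066 to 0.13 for *Rnaseh2b* and -0.093 to 0.075 for *Rnaseh2c*, and for the difference of the effects -0.33 to 0.36 for *Stab1*.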

Other observations

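Proteins known to bind phosphorothioate ASOs in cells were not among the genes called in either *Upf3b* comparison, with 0 of 20 tested in each (limma, 3 at an unadjusted p under 0.05 in Upf3b 20 against Control 20 and 4 in Upf3b 10 against Control 15, where 18.7% and 15.8% of all genes had one). *Sub1*, a transcription coactivator that binds single-stranded DNA, was 603 ± 113 TPM (n = 5) in Upf3b 20 and 319.5 ± 85.5 TPM (n = 6) in Control 20, a log2 fold change of 0.94 with an adjusted p of 0.0527. It was also the largest difference of the list in Upf3b 10 against Control 15, at 1.69 with an adjusted p of 0.136, where the Upf3b 10 mice ranged from 309 to 4433 TPM. *Xrcc5*, a subunit of the DNA end binding Ku complex, was -1.20 (adjusted p = 0.186) at 20 mg/kg, and *Ilf2*, an RNA-binding protein, was 1.61 (adjusted p = 0.124) at the lower dose.

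Among secreted and lysosomal RNases that do not cut RNA-DNA hybrids, *Rnase4* was 637 ± 331 TPM in Upf3b 20 and 1259 ± 412 TPM in Control 20 (-1.04, adjusted p = 0.0977). It was 814 ± 281 TPM in Upf3b 10 and 1553 ± 184 TPM in Control 15 (2.01-fold lower, adjusted p = 0.135), where the highest Upf3b 10 mouse (1292 TPM) lay just below the lowest Control 15 mouse (1294 TPM), a lack of overlap in this direction seen for 2.73% of 9166 genes. *Ang*, angiogenin, was 0.75 (adjusted p = 0.295) at 20 mg/kg, and *Rnaset2a* was -1.10 (adjusted p = 0.546) at the lower dose. None of the 7 tested was called in either comparison with limma. In each, 2 had an unadjusted p under 0.05, against 18.7% of all genes at 20 mg/kg and 15.8% at the lower dose. *Ang* was called between the sexes (limma), with a log2 difference of -0.79 in males (adjusted p = 0.0264). It was 1 of 7 tested there, against 2.75% of 8915 genes called.

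Of the hepatocyte markers, *Tat*, a tyrosine-degrading enzyme, was called in Upf3b 10 against Control 15 (179 ± 46.8 against 736 ± 277 TPM, 3.98-fold lower, limma adjusted p = 0.0237), where the other 9 were also below 0 and did not pass the test. *Serpina1a*, a protease inhibitor of plasma, was called in Upf3b 20 against DPBS (313 ± 65.6 against 565 ± 85.1 TPM, adjusted p = 0.0191). *Alb*, albumin, was -0.78 in males (limma, adjusted p = 4.42e-05), and *Dcn*, a matrix proteoglycan and marker of stellate cells, was -0.56 in males (adjusted p = 0.0485). Of all genes tested, 0.295% were called in Upf3b 10 against Control 15, 1.13% in Upf3b 20 against DPBS and 2.75% between the sexes. Of the markers of cholangiocytes 1 of 5, and of those of T, B and NK cells 0 of 7, had a median of at least 5 TPM over the 31 mice, and summed levels were at most 199 and 55.8 TPM.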
